A study of Rattus norvegicus with 90 samples.

Results

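The 150 transcripts described here stood higher in rat hepatocytes after 9 h with the high dose of thioacetamide-S-oxide than with vehicle, while renal cells and cardiomyocytes expressed them too and showed little difference between their own high dose and vehicle. They were chosen from 40071 transcripts with Ensembl identifiers by 3 conditions. The first was a mean level of at least 2 counts-per-million (CPM, the estimated count of a transcript scaled to the total on all transcripts of its library) in each cell type, over the 10 vehicle and high-dose libraries at 9 h, which 11421 transcripts met. The second was a difference between the high dose and vehicle at 9 h, taken as L = log2((mean CPM at the high dose + 1)/(mean CPM with vehicle + 1)), between -0.3 and 0.3 both in renal cells and in cardiomyocytes, which left 6082. Of these, 257 had an L above 0.5 in hepatocytes, and the 150 with the largest L are the members described here. Because the vehicle and high-dose libraries at 9 h chose the members, their values at 9 h are given as a description. The libraries at 24 h took no part in the choice and are tested below. "Only in hepatocytes" therefore holds by construction for the high dose at 9 h alone, and neither at the low dose at 9 h nor at 24 h did it hold for each member.

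Thioacetamide is a classic liver toxicant that does little harm until it is oxidized. Thioacetamide-S-oxide is the first product of that oxidation and is oxidized again, mostly in the liver, to a reactive form that binds proteins and lipids. Hepatocytes are rich in the enzymes for this step, proximal tubular cells of the kidney take up and metabolize many foreign compounds, and cardiomyocytes are contractile cells with little such metabolism. A transcript that every cell type expresses can be followed in all of them, which a transcript particular to hepatocytes cannot.

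Primary hepatocytes and renal tube epithelial cells of Sprague-Dawley rats, and rat cardiomyocytes, received vehicle or 1 of 2 doses for 9 or 24 h. There were 5 libraries in each of the 18 groups (90 libraries). Hepatocytes received 0.025 mM as the low and 0.125 mM as the high dose, renal cells 0.125 and 0.5 mM, and cardiomyocytes 0.5 and 1.5 mM, so that doses of the same name differ between cell types. For hepatocytes and renal cells, vehicle was the maintenance medium of the cells. The sources used here do not describe the vehicle of the cardiomyocytes. The hepatocytes and the renal cells, which came from the proximal tubule, were bought as frozen stocks and cultured in multiwell plates before exposure. The sources used here give neither the number of donor animals nor the origin of the cardiomyocytes, and p-values below measure the spread between libraries, which may be technical.

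Only 249303 counts (8.33% of its total) fell on transcripts in MS-183, a hepatocyte vehicle library at 24 h, and its rank correlation with the other 4 libraries of its group was at most 0.42 over the broadly expressed transcripts. It was left out unless stated. The other 89 libraries held between 10519414 and 55822031 counts on transcripts (84.1% to 95.3% of their totals). The remaining 4 vehicle libraries of the hepatocytes at 24 h resembled each other (Spearman rho of at least 0.98) more than any low-dose or high-dose library at 24 h (rho of at most 0.948). Single low-dose and high-dose libraries correlated as little as 0.939 with each other. Between group means at 24 h, rho was 0.930 for vehicle and low dose, 0.952 for vehicle and high dose, and 0.976 for low and high dose. Low-dose libraries MS-145 (renal cells, 24 h), MS-158 (cardiomyocytes, 9 h) and MS-172 (cardiomyocytes, 24 h) had summed levels of the members well below the other 4 libraries of their groups. The reference used here held 0 rows with an Ensembl identifier, so none of the transcripts could be paired with a gene symbol. Members are therefore named by identifier, their roles and sequences are not given, and the labelled cell types could not be checked against markers. Within a culture, fewer cells of a type and less RNA per cell cannot be told apart.

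Without the compound, the members stood lower in hepatocytes than in the other cells at 9 h, but not at 24 h. In vehicle at 9 h their median level was 12.1 CPM in hepatocytes, 22.7 CPM in renal cells and 19.9 CPM in cardiomyocytes, against 27.5, 29.7 and 27.0 CPM for all broadly expressed transcripts. Hepatocytes had the lowest of the 3 vehicle means for 89 members (59.3%), compared with 39.5% of the broadly expressed transcripts. When the hepatocyte mean at the high dose at 9 h took the place of the vehicle mean, hepatocytes had the highest mean for 84 members (56%) and the lowest for 38 (25.3%). Among the broadly expressed transcripts these shares were 35.6% and 43.7%. The rule used the hepatocyte vehicle level at 9 h, so these shares are a description. In vehicle at 24 h the order of the medians differed, with hepatocytes highest. The members' median level was then 22.3 CPM in hepatocytes (n = 4), 19.95 CPM in renal cells and 18.98 CPM in cardiomyocytes. The members' median length was 2686.5 bases, with quartiles of 1723.5 and 4261.5 bases, and that of the broadly expressed transcripts was 2253 bases (1486 and 3483). For 54 members (36%) every library gave a whole number, as a transcript that shares no read with another would, and this share was 38.5% among broadly expressed transcripts.

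At 9 h, hepatocyte L ran from 0.63 to 1.90 with a median of 0.76. All 5 high-dose libraries lay above all 5 vehicle libraries for 92% of the members, against 13.4% of the broadly expressed transcripts, a count on which the rule acted. The low-dose libraries were not used by the rule but are set here against the vehicle and high-dose libraries, which were. The low-dose mean lay between vehicle and high dose for all members but 1, at a median of 42.0% of the log2 distance (10th to 90th percentile 25.1% to 61.2%). Because the rule chose members whose vehicle and high-dose means lay apart, a mean between them is favoured beforehand, and this is a description. The same share over the broadly expressed transcripts is not given. For 62 members all 5 low-dose libraries lay above all 5 vehicle libraries, against 5.62% of the broadly expressed transcripts. The exception, picked out after its values were seen, was ENSRNOT00000012022, with 4.54 CPM in vehicle, 10.03 CPM at the low dose and 7.89 CPM at the high dose, and its high-dose libraries overlapped both other groups.

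The rule did not hold the low dose flat in the other cell types. In renal cells at 9 h, the low dose differed from vehicle by more than 0.3, as a difference of log2(CPM + 1), for 6 members in the higher and 16 in the lower direction (range -0.64 to 1.01, median -0.06). In cardiomyocytes these counts were 14 and 29 (range -1.19 to 0.90, median -0.10), in a group that includes library MS-158, whose part in these values was not tested. Over the broadly expressed transcripts the medians were -0.01 in renal cells and -0.06 in cardiomyocytes. Their shares beyond 0.3 are not given, so the counts of members have no reference.

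**Figure D1:**
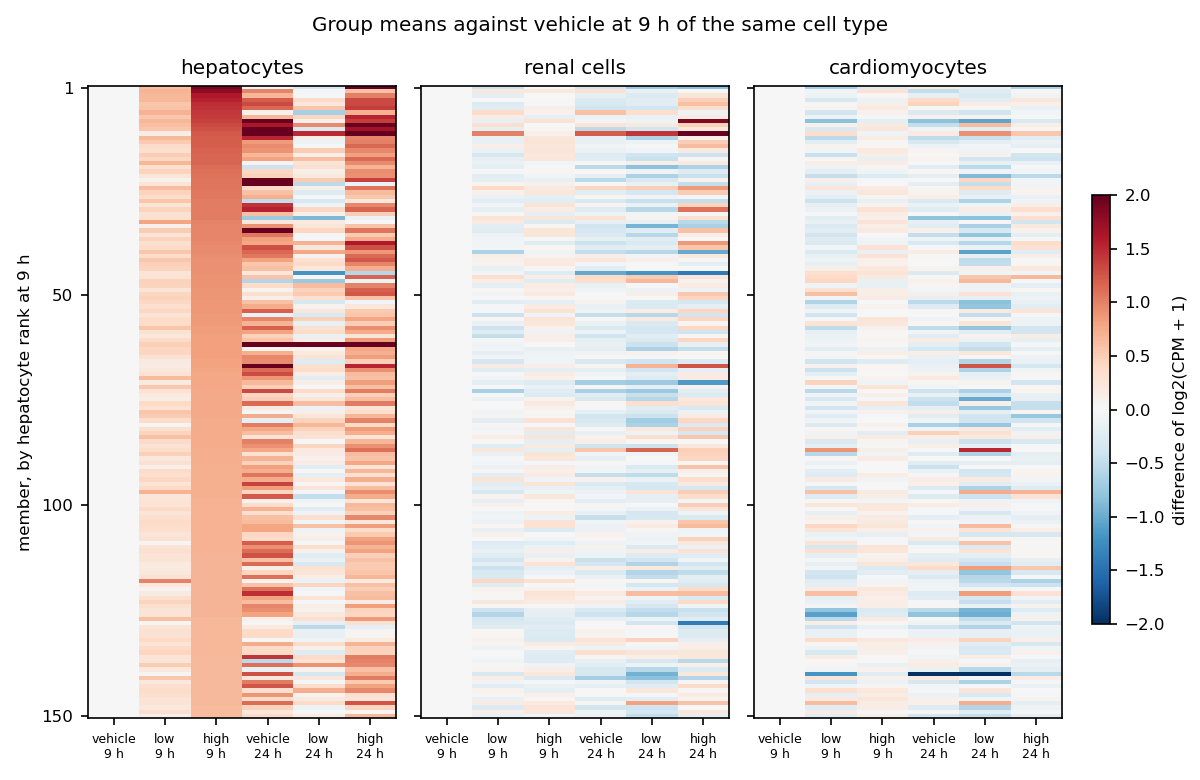
Difference of log2(CPM + 1) between each group mean and the vehicle mean at 9 h of the same cell type (colour, log2 scale, limited to 2 in either direction), for the 150 members (rows, by hepatocyte rank at 9 h) and the 6 groups of each cell type (columns). The high-dose column at 9 h was used to choose the members. In hepatocytes the low-dose column at 24 h is pale while the vehicle and high-dose columns at 24 h are mostly red.

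The member with the largest L (1.90) was ENSRNOT00000067780. Its hepatocyte libraries at 9 h held 26.4, 24.3, 21.7, 25.2 and 26.2 CPM with vehicle, 40.5, 40.1, 36.6, 37.4 and 40.5 CPM at the low dose, and 91.3, 95.5, 90.3, 111.2 and 87.2 CPM at the high dose. The 3 groups did not overlap. In vehicle at 9 h the same transcript stood far higher in renal cells (324 ± 3.80 CPM, SD, n = 5) and cardiomyocytes (107.9 ± 5.50 CPM), so that the hepatocytes approached the level of the cardiomyocytes only at the high dose.

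Next in rank was ENSRNOT00000074941, whose vehicle libraries at 9 h held 24.9, 27.1, 24.8, 25.5 and 28.4 CPM. The low-dose libraries held 40.7, 42.5, 41.9, 43.3 and 43.7 CPM and the high-dose libraries 87.0, 90.4, 95.8, 98.5 and 90.4 CPM. Again no library of a higher dose fell to the level of a lower one. For ENSRNOT00000021818, the next member, vehicle values ranged from 26.1 to 41.1 CPM, low-dose values from 46.1 to 53.5 CPM and high-dose values from 77.1 to 108.5 CPM. The other 7 of the first 10 members had an L of 1.32 to 1.55: ENSRNOT00000023020, ENSRNOT00000022824, ENSRNOT00000013552, ENSRNOT00000010050, ENSRNOT00000023289, ENSRNOT00000010024 and ENSRNOT00000014939.

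At the other end of the list stood ENSRNOT00000077368 (L of 0.64), ENSRNOT00000090774 (0.64) and ENSRNOT00000007162 (0.63, from 21.2 to 33.4 CPM). The first transcripts left out were ENSRNOT00000083720, ENSRNOT00000027200 and ENSRNOT00000075184, each with an L of 0.63. A further 52 transcripts with a hepatocyte L above 0.5 were left out because of an L between 0.3 and 0.35 in size in another cell type. They include ENSRNOT00000044413, with a hepatocyte L of 1.39 and a cardiomyocyte L of 0.34, and ENSRNOT00000057843, with 1.33 in hepatocytes and 0.33 in renal cells. The values on either side of each limit were close.

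Summed over the 150 members, hepatocytes held 4473 ± 403 CPM with vehicle, 5859 ± 197 CPM at the low dose and 8287 ± 346 CPM at the high dose at 9 h (SD, n = 5 each). At 24 h they held 7866 ± 291 CPM with vehicle (n = 4), 4812 ± 280 CPM at the low dose and 7708 ± 449 CPM at the high dose (n = 5 each). The order of low and high dose was thus the same at both times, while vehicle moved from the lowest group to the level of the high dose. Vehicle library MS-183 held 4614 CPM, near the level of the low dose. The sum gives most weight to abundant members. ENSRNOT00000066885 alone held a mean of 1104 CPM at the low dose and 1776 CPM at the high dose at 24 h. The median level of a member in hepatocytes was 12.1, 15.2 and 22.8 CPM for vehicle, low and high dose at 9 h. At 24 h it was 22.3, 12.7 and 23.9 CPM. Among renal cells, the summed level was 7015 ± 93.2, 6603 ± 88.4 and 6897 ± 109 CPM at 9 h for vehicle, low and high dose, and 6574 ± 70.7, 6084 ± 697 and 7059 ± 103.6 CPM at 24 h. The cardiomyocytes held 5839 ± 89.8, 5221 ± 602 and 5859 ± 122.9 CPM at 9 h, and 5368 ± 152.1, 5026 ± 714 and 5611 ± 120.5 CPM at 24 h. The 3 wide SDs each come with a single low library, at 4840 CPM (MS-145), 4146 CPM (MS-158) and 3749 CPM (MS-172).

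**Figure D2:**
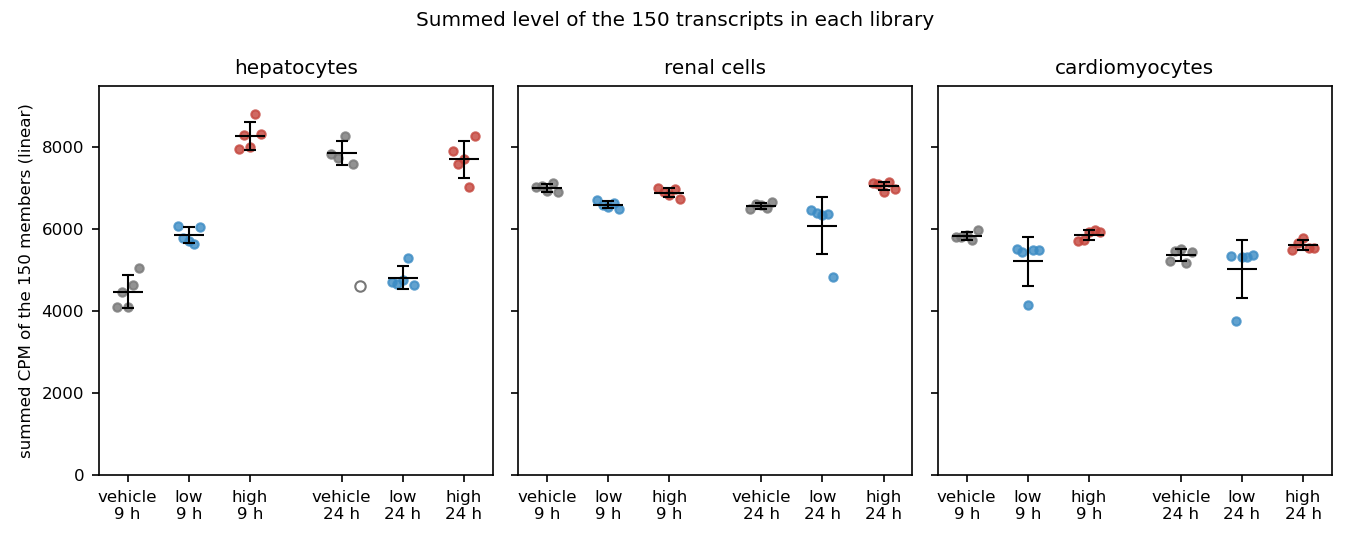
Summed CPM of the 150 members (linear axis from 0) in each library (points) by dose and time in the 3 cell types, with the group mean and SD (black). The open point is vehicle library MS-183, which is in no mean. The high-dose hepatocyte libraries lie above all low-dose ones at both times, and the 4 vehicle libraries at 24 h lie at 7593 to 8273 CPM and overlap the high-dose libraries (7042 to 8269 CPM).

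High against low dose at 24 h asks whether the order seen at 9 h recurred in hepatocyte libraries that the rule had not used. It did for most members. By edgeR's quasi-likelihood test, 81 of the 150 members (54%) were higher at the high dose, where a call needed an adjusted p of 0.05 or less and a change of 1.51-fold or more (0.41 as a natural logarithm). Of all 16893 transcripts tested, 6.58% were called higher, and of the broadly expressed transcripts 5.31%. Among the other transcripts that were flat in renal cells and cardiomyocytes at 9 h, the share was 2.83%. None of the members was called lower (8.34% of all transcripts tested), and DESeq2 also called 0 lower. At an unadjusted p under 0.05, 88.7% of the members were higher and 1 member was lower. The share of all transcripts tested at that limit is not given, so these counts have no reference beside them. The median log2 fold change was 0.65 over the members (10th to 90th percentile 0.27 to 1.13) and -0.00 over all transcripts tested.

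All 5 high-dose libraries lay above all 5 low-dose libraries for 100 members, against 12.8% of the transcripts tested, and below them for 0 (17.8%). Just 2 members had a fold change below 0, and they are named after their values were seen. ENSRNOT00000054974 had 11.03 ± 0.873 CPM at the low dose and 9.03 ± 0.830 CPM at the high dose, a log2 fold change of -0.26 (SE 0.08, adjusted p = 0.0261, under the fold threshold). ENSRNOT00000089966 had 2.96 ± 0.732 and 2.46 ± 0.757 CPM (adjusted p = 0.488). Of the 50 members with the largest L at 9 h, 38 were called higher, and of the next 50 and the last 50, 22 and 21 were. The median log2 fold changes of these 3 sets were 0.91, 0.57 and 0.52. Calls were as frequent among members whose counts were all whole (29 of 54) as among those with divided reads (52 of 96).

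**Figure D3:**
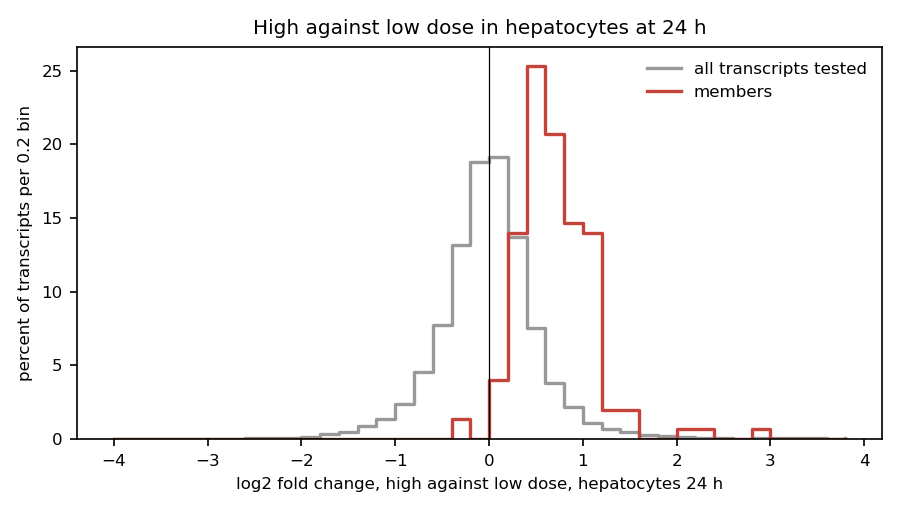
Log2 fold change of high against low dose in hepatocytes at 24 h (edgeR), in bins of 0.2, as a percent of the 150 members (red) and of the 16893 transcripts tested (grey). The grey curve is centred on 0 and the red one has its median at 0.65.

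ENSRNOT00000067780 had the largest fold change among the called members whose doses did not overlap and whose mean log2 CPM was 3 or more. Its low-dose libraries at 24 h held 18.7, 19.2, 20.4, 21.1 and 19.6 CPM and its high-dose libraries 115.5, 100.4, 109.0, 83.0 and 98.2 CPM, a log2 fold change of 2.38 (SE 0.09, adjusted p = 3.75e-07). The vehicle libraries, at 21.7 to 27.9 CPM, lay just above the low-dose ones, so that the high dose alone stood apart. ENSRNOT00000025365 followed, with 6.63, 6.08, 6.004, 9.65 and 6.57 CPM at the low dose and 34.2, 28.5, 33.01, 24.3 and 31.8 CPM at the high dose (log2 fold change 2.15, SE 0.15, adjusted p = 3.22e-06). For this member the 4 vehicle libraries were higher than both doses, at 38.9 to 47.8 CPM.

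A rise with time as well as with dose was seen in ENSRNOT00000005677. At 9 h its hepatocyte means were 1.88, 3.01 and 4.07 CPM for vehicle, low and high dose, and at 24 h they were 12.2, 20.01 and 52.4 CPM. The low-dose libraries at 24 h held 15.7 to 28.5 CPM and the high-dose libraries 42.7 to 59.9 CPM without overlap (log2 fold change 1.41, SE 0.15, adjusted p = 3.08e-05). Renal cells and cardiomyocytes held 193 ± 1.29 and 118.5 ± 4.02 CPM of it in vehicle at 9 h, and the hepatocyte means stayed below theirs at each dose and time.

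ENSRNOT00000010050 rose from 38.6 ± 2.97 CPM at the low dose to 100.9 ± 6.61 CPM at the high dose, a log2 fold change of 1.41 (SE 0.07, adjusted p = 8.12e-07). Its vehicle libraries, at 59.2 to 72.8 CPM, lay between the 2 doses. ENSRNOT00000010024 had 53.2, 53.9, 57.7, 72.6 and 64.4 CPM at the low dose and 161.35, 158.65, 161.03, 133.4 and 131.2 CPM at the high dose (log2 fold change 1.33, SE 0.10, adjusted p = 3.88e-06). The 4 vehicle libraries of this transcript were higher than any exposed library, at 293 to 325 CPM. All 10 members with the largest L at 9 h were called higher in this comparison, with log2 fold changes from 0.64 (ENSRNOT00000074941) to 2.38.

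**Figure D4:**
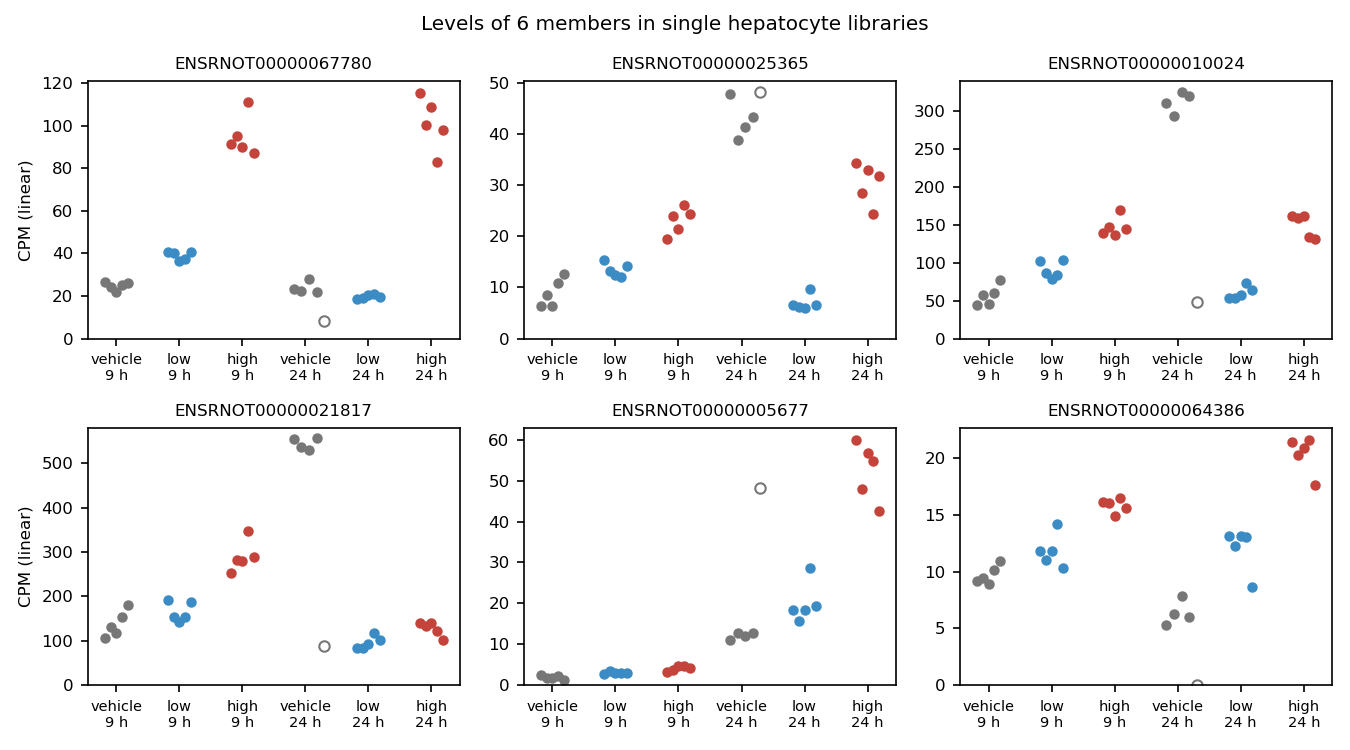
CPM (linear axes from 0) of 6 members in each hepatocyte library (points) by dose and time. The open point is vehicle library MS-183. High dose lies above low dose at 24 h in each panel except that of ENSRNOT00000021817, whose doses overlap, and the vehicle libraries at 24 h lie below, between or above the doses depending on the member.

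The comparison with vehicle at 24 h gave a mixed picture. With the high dose, 20 members were higher and 21 lower (13.3% and 14% of the members). These shares were 15.1% and 11.6% for all transcripts tested, and 6.78% and 7.55% for the other transcripts flat in renal cells and cardiomyocytes at 9 h. The members' median log2 fold change was -0.04. The counts were 9 higher and 6 lower with MS-183 kept, and 23 and 14 with upper-quartile normalization. After the low dose, 3 members were higher and 86 lower, against 20.1% and 16.9% of all transcripts tested and 11.2% and 13.1% of the other flat transcripts, with a median of -0.68 (0.01 over all transcripts tested), and with MS-183 kept these counts were 1 and 43. The low dose had the lowest of the 3 hepatocyte means at 24 h for 87.3% of the members, against 34.5% of the broadly expressed transcripts. Both comparisons rest on the 4 vehicle libraries at 24 h, and what sets their means further from both doses than the doses were from each other was not tested. Their library numbers (MS-181 to MS-185) come after those of all other libraries, and the other hepatocyte libraries lie between MS-91 and MS-120. Whether they were run or cultured apart is not given in the sources used here, so that time and a difference of this kind cannot be told apart in the values that follow. Vehicle at 24 h exceeded vehicle at 9 h by a median of 0.72 over the members, as a difference of log2(CPM + 1). All 4 vehicle libraries at 24 h lay above all 5 at 9 h for 69.3% of the members, against 29.1% of the broadly expressed transcripts, a description since the rule used the vehicle libraries at 9 h. From 9 to 24 h the low-dose and high-dose medians were -0.24 and -0.10.

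Vehicle had the highest of the 3 means at 24 h for 78 members and the high dose for 71. The shares of the broadly expressed transcripts with these orders are not given. Among called members that did not overlap between groups and had a mean log2 CPM of 3 or more, ENSRNOT00000005677 and ENSRNOT00000067780 rose most against vehicle, with log2 fold changes of 2.07 (SE 0.10, adjusted p = 1.48e-07) and 2.06 (SE 0.12, adjusted p = 4.30e-07). ENSRNOT00000064386 rose from 5.31, 6.28, 7.81 and 6.01 CPM in vehicle to 21.4, 20.3, 20.9, 21.6 and 17.6 CPM at the high dose (log2 fold change 1.65, SE 0.11, adjusted p = 1.50e-06). Its low-dose libraries, at 8.68 to 13.1 CPM, lay between the groups. ENSRNOT00000077624 (4.71 to 11.9 CPM, log2 fold change 1.31) and ENSRNOT00000029615 (13.2 to 30.2 CPM, 1.16) showed the same order of means. These calls held with MS-183 kept. ENSRNOT00000064386, ENSRNOT00000077624 and ENSRNOT00000005677 were the 3 members called higher at the low dose, with log2 fold changes of 0.86, 0.67 and 0.65, of which 1 was called with MS-183 kept.

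ENSRNOT00000021817 fell most against vehicle. Its vehicle libraries at 24 h held 556, 536, 531 and 556 CPM, its low-dose libraries 84.2, 84.3, 92.3, 117.3 and 101.1 CPM, and its high-dose libraries 140.7, 132.1, 139.6, 122.04 and 102.4 CPM. Exposed libraries of both doses lay far below vehicle and overlapped each other (high against vehicle, log2 fold change -2.13, SE 0.08, adjusted p = 3.96e-08). MS-183 held 88.2 CPM of it. At 9 h the means of this transcript were 137.7 ± 29.7 CPM with vehicle, 166.1 ± 22.5 CPM at the low dose and 290 ± 34.8 CPM at the high dose, and only the high dose lay clear of the other groups. ENSRNOT00000056918 (17.1 to 7.96 CPM), ENSRNOT00000075936 (142.8 to 67.8 CPM), ENSRNOT00000010024 (312 to 149.1 CPM) and ENSRNOT00000004412 (214 to 105.99 CPM) fell by 1.12, 1.11, 1.10 and 1.05 on the log2 scale. With MS-183 kept, the calls of ENSRNOT00000021817 and ENSRNOT00000056918 held. The other 3 were no longer called, with log2 fold changes of -0.85 (ENSRNOT00000075936), -0.84 (ENSRNOT00000010024) and -0.83 (ENSRNOT00000004412) and larger SEs. All 5 were also lower at the low dose than with vehicle, with log2 fold changes from -1.41 (ENSRNOT00000075936) to -2.57 (ENSRNOT00000021817). With MS-183 kept, ENSRNOT00000075936 was not called at the low dose (log2 fold change -1.16, edgeR adjusted p = 0.137), and the others were.

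In the other cell types, high dose and vehicle at 24 h were compared in the same way. In renal cells, 21 members were higher at the high dose and 2 were lower (14% and 1.33%). These shares were 12.0% and 14.9% for all 17801 transcripts tested, and 5.02% and 3.32% for the other transcripts flat at 9 h. The members' median log2 fold change was 0.12, and with all 9 groups at 24 h in one fit 12 members were higher. Those that rose include ENSRNOT00000010024, which had 2.87, 3.08, 2.88, 2.92 and 2.62 CPM in vehicle and 14.4, 11.3, 14.98, 10.9 and 16.3 CPM at the high dose. Its log2 fold change of 2.18 (SE 0.11, adjusted p = 7.84e-08) was the largest of any member there, and the groups lay far apart. At 9 h the renal L of this transcript was 0.29, near the limit of the rule. Of the first 10 members, ENSRNOT00000023020, ENSRNOT00000022824 and ENSRNOT00000013552 rose in renal cells too, by 0.91, 0.88 and 0.69 on the log2 scale. The 2 that fell were ENSRNOT00000010050, from 128.6 ± 2.46 to 80.0 ± 3.01 CPM (log2 fold change -0.74, SE 0.03, adjusted p = 1.19e-08), and ENSRNOT00000000039 (-1.45, SE 0.07, adjusted p = 3.41e-08), the latter named after its values were seen.

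In cardiomyocytes, where all members but 1 could be tested at 24 h, 5 were higher at the high dose and 1 was lower (3.36% and 0.67%, against 6.01% and 6.39% of the 17286 transcripts tested, and 1.15% and 0.995% of the other transcripts flat at 9 h). The median log2 fold change was 0.01. The 5 were ENSRNOT00000017809 (log2 fold change 1.15, SE 0.07, adjusted p = 6.26e-07), ENSRNOT00000008941 (0.73), ENSRNOT00000072616 (0.67), ENSRNOT00000019880 (0.65) and ENSRNOT00000054974 (0.63), of which the first 3 are named after their values were seen. ENSRNOT00000067780, the leading member in hepatocytes, was the 1 that fell, from 128.1, 122.5, 111.99, 124.57 and 130.03 CPM to 71.0, 69.0, 75.6, 68.0 and 66.2 CPM (log2 fold change -0.83, SE 0.05, adjusted p = 3.80e-07). Thus the member with the largest L in hepatocytes was lower at the high dose in cardiomyocytes. Without vehicle library MS-168 the count of higher members was 8, and without MS-169, MS-170, MS-179 or MS-180 the count of lower members was 2.

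A difference between cell types was tested directly as a contrast of responses, with all 9 groups at 24 h in one edgeR fit. Taken as high minus low dose, the response of hepatocytes exceeded that of renal cells for 55 members and fell short for 1 (9.39% and 7.99% of the 21320 transcripts tested, 5.73% and 6.98% of the other transcripts flat at 9 h), with a median contrast of 0.62 (0.04 over all transcripts tested). It exceeded that of cardiomyocytes for 61 members and fell short for 1 (7.80% and 7.41% of all, 6.29% and 6.34% of the other flat transcripts), with a median of 0.70 (-0.02 over all). Both contrasts use the same hepatocyte libraries and are not independent of each other or of the high against low comparison above. With low-dose libraries MS-145 and MS-172 left out, a setting chosen after seeing the data, the contrasts gave 64 higher and 1 lower, and 69 higher and 1 lower. The 1 lower member of the cardiomyocyte contrast was lost without MS-112, MS-172, MS-176 or MS-178, and 2 were lower without MS-173. In the renal contrast, 2 were lower without MS-120.

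ENSRNOT00000067780 had the largest contrast with renal cells among the called members, 2.63 (SE 0.27, adjusted p = 5.51e-10). Its renal means were 198 ± 85.0 CPM at the low dose, where MS-145 held 52.0 CPM, and 182.4 ± 27.5 CPM at the high dose, and without MS-145 the contrast was 2.85. ENSRNOT00000010050 came next with 1.999 (SE 0.12, adjusted p = 1.67e-15), and its renal libraries went the other way, from 108.3 ± 32.5 to 80.0 ± 3.01 CPM. ENSRNOT00000019880 had 2.46 ± 0.520 and 6.65 ± 0.753 CPM in hepatocytes and 12.97 ± 0.892 and 10.6 ± 1.08 CPM in renal cells, a contrast of 1.97 (SE 0.20, adjusted p = 7.12e-10). The contrast of ENSRNOT00000077290 (1.83, SE 0.58, adjusted p = 0.0185) was 1.29 without MS-145 and no longer called. ENSRNOT00000010024 was the 1 lower member, at -0.79 (SE 0.16, adjusted p = 0.000193), with renal means of 2.75 and 13.6 CPM at the low and high dose.

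In the contrast with cardiomyocytes, ENSRNOT00000067780 reached 2.92 (SE 0.27, adjusted p = 1.49e-10), and 3.12 without MS-172. The 3 other members with the largest called contrasts lost their calls without that library. ENSRNOT00000060822 (3.25, SE 0.88, adjusted p = 0.00615) had 6.26, 45.7, 3.22, 14.1 and 5.87 CPM in the low-dose cardiomyocyte libraries, of which MS-172 was the highest. Without MS-172 its contrast was 1.84 (adjusted p = 0.0620). ENSRNOT00000086765 (2.32) and ENSRNOT00000079965 (2.06) had contrasts of 1.46 and 1.59 without that library, with adjusted p-values of 0.0577 and 0.0623. The lower member, ENSRNOT00000054974 (-0.94, SE 0.31, adjusted p = 0.0257), also lost its call there (-0.73, adjusted p = 0.0692).

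With vehicle as the reference, the calls fell on both sides. Hepatocytes exceeded renal cells in their response to the high dose for 17 members (11.3%) and fell short for 22 (14.7%), against 17.2% and 13.2% of all transcripts tested and 13.0% and 12.4% of the other transcripts flat at 9 h. Against cardiomyocytes these counts were 14 (9.33%) and 21 (14%), against 12.5% and 11.4% of all and 9.73% and 8.19% of the flat transcripts, and with DESeq2 they were 22 and 21. At 0.125 mM, the dose that hepatocytes received as high and renal cells as low, 11 members (7.33%) had the larger response in hepatocytes and 12 (8%) the smaller, against 9.74% and 7.61% of all and 6.32% and 6.09% of the flat transcripts, and with DESeq2 the counts were 16 and 12. With MS-183 kept, the counts of these 3 contrasts were 15 and 15, 14 and 11, and 11 and 6. Their estimates use the hepatocyte vehicle libraries at 24 h. Those of the contrasts of high and low dose do not, but the spread behind their calls does, and with MS-183 kept they gave 38 and 0 for renal cells and 45 and 1 for cardiomyocytes.

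**Figure D5:**
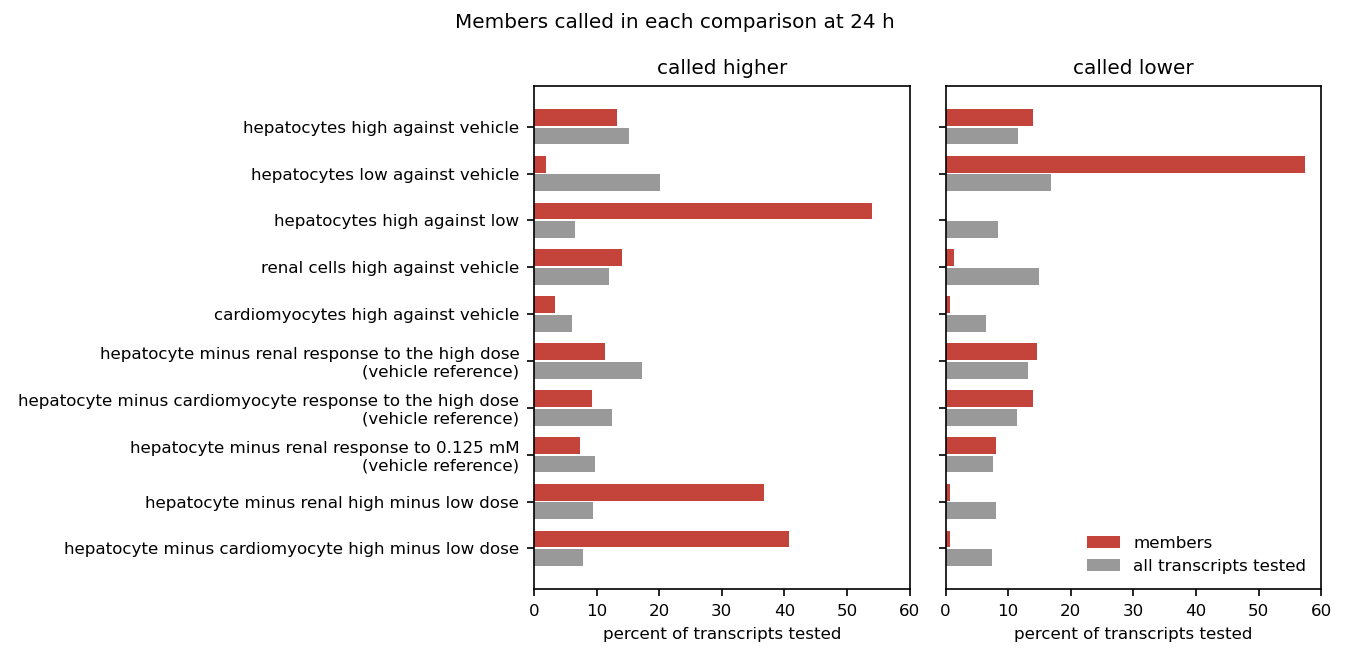
Percent of transcripts called higher (left) and lower (right) in the 10 comparisons at 24 h (rows), for the members (red) and for all transcripts tested (grey), by edgeR. The members stand well above the grey bars for high against low dose in hepatocytes (54%), for both contrasts of high minus low dose, and, in the lower direction, for low dose against vehicle in hepatocytes (57.3%).

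Per unit of length, the most abundant member in hepatocytes was ENSRNOT00000066885, with 1879 transcripts-per-million (TPM) in vehicle and 2930 TPM at the high dose at 9 h. At 24 h its low-dose libraries held 1105, 1089, 1058, 1179 and 1087 CPM and its high-dose libraries 1649, 1703, 1758, 1626 and 2145 CPM (log2 fold change 0.72, SE 0.09, adjusted p = 0.000134). The doses did not overlap. ENSRNOT00000052231 (379 TPM in vehicle at 9 h) varied widely between libraries in each group, with 190 ± 84.7 and 219 ± 109 CPM at the low and high dose at 24 h (adjusted p = 0.683). ENSRNOT00000050223 (222 TPM) had a log2 fold change of 0.58, under the fold threshold, and ENSRNOT00000002121 (84.1 TPM) rose by 0.75 on the log2 scale. ENSRNOT00000021817 (90.2 TPM) completes the 5, at 0.43 and also under the threshold.

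The longest and the shortest member were both higher at the high than at the low dose at 24 h. The longest member, ENSRNOT00000091139 (8203 bases), rose from 19.9 ± 1.62 to 32.8 ± 4.72 CPM between low and high dose at 24 h, and the shortest, ENSRNOT00000039400 (237 bases), from 2.77 ± 0.203 to 5.15 ± 0.438 CPM. Their log2 fold changes were 0.74 and 0.92, and their vehicle means were 19.7 and 5.82 CPM. Among the 3 members at the edge of the rule, none passed both thresholds at 24 h. ENSRNOT00000077368 and ENSRNOT00000007162 had log2 fold changes of 0.57 and 0.56 under the fold threshold, and ENSRNOT00000090774 had 0.06 (adjusted p = 0.673).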

How the data were processed

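RNA of cultured cells was sequenced as 90 poly-A-enriched libraries (150-bp paired reads). The deposited table of a library gives estimated counts and TPM, which the authors made with kallisto 0.42.4 against the rat transcriptome Rnor_6.0, for 40071 transcripts and 25095 genomic intervals. A read shared by several transcripts was divided among them by the authors' tool, so an estimated count need not be whole. The genomic intervals were left out here.

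Groups were taken from the sample labels. The members and the lists were chosen with earlier results of these data known. Estimated counts of all transcripts were rounded and tested with the quasi-likelihood functions of edgeR 4.0.16 under R 4.3.3, after filterByExpr and TMM scaling, without vehicle library MS-183, with Benjamini-Hochberg adjustment over all transcripts tested. Calls used the study's limits, an adjusted p of 0.05 or less and a change of 0.41 or more in size as a natural logarithm. The SE is the size of the log2 fold change over the square root of F. In all, 5 pairs of groups and 5 contrasts of cell types were tested, all at 24 h. CPM in the text carries no TMM factor. DESeq2 1.42.0 and the other alternatives are given in the closing section. The functions were tested on simulated data.

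Named transcripts are the 10 members with the largest L, up to 5 in each direction with the largest fold change among those called in hepatocytes (high against low, and high against vehicle, for a mean log2 CPM of 3 or more and groups that do not overlap), up to 4 in each direction among those called in the contrasts of high and low dose, the 5 with the highest TPM in hepatocyte vehicle at 9 h, those on either side of the rule's limits, and the longest and shortest. Gene lists and cell type markers were not used, because 0 transcripts matched a gene symbol in the RefSeq table of assembly GRCr8. That table held 0 rows with an Ensembl identifier, so no match was possible.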

Additional observations from a re-analysis of the deposited data

Results flagged for a closer look

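A library far from the other libraries of its group was sought in the summed level of the members in all 18 groups and in 10 members over the 6 hepatocyte groups. Of these 78 sets, 9 held such a library, where chance gives about 3.9 (5%). In the summed level, low-dose libraries stood apart in 4 groups, MS-114 of the hepatocytes at 24 h on the high side (5306 CPM), and MS-145 of renal cells at 24 h (4840.1 CPM), MS-158 of the cardiomyocytes at 9 h (4146 CPM) and MS-172 of the cardiomyocytes at 24 h (3749 CPM) on the low side. Among single members in low-dose hepatocytes at 24 h, MS-114 was high for ENSRNOT00000025365 (9.65 CPM) and ENSRNOT00000005677 (28.5 CPM), MS-113 was low for ENSRNOT00000021818 (28.97 CPM) and MS-115 was low for ENSRNOT00000064386 (8.68 CPM). High-dose library MS-120 at 24 h was high for ENSRNOT00000066885 (2145 CPM).

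Responses that differed between cell types by a test of the difference are given as counts of members and as values on the log2 scale (hepatocytes minus the other cell type). For high minus low dose they number 55 higher and 1 lower against renal cells, and 61 higher and 1 lower against cardiomyocytes. With vehicle as the reference they number 17 and 22 against renal cells, 14 and 21 against cardiomyocytes, and 11 and 12 at 0.125 mM. Against renal cells the named contrasts were 2.63 (ENSRNOT00000067780), 1.999 (ENSRNOT00000010050), 1.97 (ENSRNOT00000019880), 1.83 (ENSRNOT00000077290) and -0.79 (ENSRNOT00000010024). Against cardiomyocytes they were 3.25 (ENSRNOT00000060822), 2.92 (ENSRNOT00000067780), 2.32 (ENSRNOT00000086765), 2.06 (ENSRNOT00000079965) and -0.94 (ENSRNOT00000054974).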

How the results depend on the processing

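Which of higher and lower members were more numerous turned with the setting for high against vehicle in hepatocytes (20 and 21, but 23 and 14 with upper-quartile normalization) and for the 3 vehicle-reference contrasts, for renal cells (17 and 22, but 11 and 10 at a fold change of at least 2), for cardiomyocytes (14 and 21, but 22 and 21 with DESeq2) and at 0.125 mM (11 and 12, but 16 and 12 with DESeq2), among other settings. Of the members, 94.7% were chosen again with TMM-scaled CPM, 74.7% with TPM, 90.7% with a pseudocount of 0.1, 91.3% with all targets in the denominator, and 89.3% to 98% without 1 library. No paired analysis was possible because the library numbers are not shared between groups. Counts below are higher and lower members, with the higher ones as a percent of the members tested for high against low dose in hepatocytes, and those not listed stayed within 1.5 times.

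With each library left out in turn, the counts were 50.7% to 57.3% and 0 for high against low dose in hepatocytes, 17 to 21 and 17 to 23 for high against vehicle, 2 to 3 and 81 to 86 for low against vehicle, 17 to 24 and 2 to 3 in renal cells, and 4 to 8 and 1 to 2 in cardiomyocytes. The contrasts of high and low dose gave 50 to 65 and 1 to 2 (renal cells) and 57 to 71 and 0 to 2 (cardiomyocytes). The contrasts with a vehicle reference gave 17 to 20 and 19 to 26, 12 to 18 and 19 to 25, and, at 0.125 mM, 10 to 13 and 11 to 16.

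Without a fold threshold the counts were 82.7% and 1 for high against low dose, 40 lower for high against vehicle, 7 higher for low against vehicle, 47 and 29 in renal cells, 17 and 11 in cardiomyocytes, and 22 higher in the cardiomyocyte contrast with a vehicle reference. At a fold change of at least 2 they were 18% higher (high against low), 9 and 5 (high against vehicle), 0 and 44 (low against vehicle), 3 and 1 (renal cells), 1 and 0 (cardiomyocytes), 18 and 0 and 35 and 0 (contrasts of high and low dose), and 11 and 10, 8 and 10, and 6 and 6 (vehicle reference, 0.125 mM last). Shares over all transcripts tested are not given at either of these limits.

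With only whole-number transcripts, which leaves 54 members, they were 8 and 6 for high against vehicle, 1 and 32, 7 higher, 3 higher, 28 and 0, 30 and 0, 10 and 11, 7 and 9, and 6 and 6, in the same order. With MS-183 kept they were 9 and 6 (high against vehicle), 1 and 43 (low against vehicle), and 15 and 15, 14 and 11, and 11 and 6 in the contrasts with a vehicle reference. In the contrasts of high and low dose, where keeping it was added after seeing the data, they were 38 and 0, and 45 and 1. All 9 groups in one fit gave 12 higher in renal cells, DESeq2 gave 22 higher in the cardiomyocyte contrast with a vehicle reference, and upper-quartile normalization gave 2 lower in cardiomyocytes. It also moved the share of higher calls for high against vehicle in hepatocytes from 48.8% to 62.2%, and DESeq2 moved that of the cardiomyocyte contrast with a vehicle reference from 40% to 51.2%. The causes were not tested except where the setting itself leaves fewer members. MS-183, with 249303 counts on transcripts, is the shallowest library by far.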

Other observations

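ENSRNOT00000085497, the member that could not be tested in cardiomyocytes at 24 h, was near 0 there in vehicle. Its cardiomyocyte vehicle mean was 4.55 CPM at 9 h and 0.0027 CPM at 24 h, its low-dose mean 1.44 and 0.31 CPM and its high-dose mean 3.68 and 2.80 CPM, and 4 of the 5 high-dose libraries at 24 h held 1.34 to 5.55 CPM and the other was listed at 0. The hepatocyte means of the same transcript at 24 h were 33.8, 10.3 and 22.8 CPM for vehicle, low and high dose.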
